A study of Homo sapiens with 9 samples.

Results

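The genes described here are 10 factors of the switch between epithelial and mesenchymal cell states: SNAI1, SNAI2, TWIST1, TWIST2, ZEB1, ZEB2, VIM, ESRP1, ESRP2 and GRHL2. They were taken by symbol from a table of 56809 genes, and all 10 were found. RNA had been measured by bulk sequencing of polyadenylated RNA in 9 libraries of the line MDA-MB-468. These are established human breast adenocarcinoma cells that lack hormone receptors and express EGFR strongly. Cells carried the empty hairpin vector pSicoR (control), the hairpin shLMO2-1 or the hairpin shLMO2-2, with 3 libraries each. Both hairpins bear the name of LMO2, a nuclear LIM-domain protein that bridges transcription factors, and a hairpin of this kind is cut into a small interfering RNA that degrades its matching transcripts. All 3 groups share the line and the vector backbone, no hairpin against another target is among the groups analysed here, and the labels name no dose, time, clone or sorting. Nothing in the labels says that the libraries of a group came from separate cultures, so p-values measure the spread between these libraries, which may be technical.

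Epithelial cells hold together through cadherin junctions and keratins. In the epithelial-mesenchymal transition they loosen those junctions, take on vimentin filaments and become motile, and carcinoma cells can hold states between both ends. The zinc-finger proteins SNAI1, SNAI2, ZEB1 and ZEB2 and the helix-loop-helix proteins TWIST1 and TWIST2 drive the mesenchymal side, the first 4 largely by repressing CDH1 (E-cadherin) and other junction genes at E-box sequences. GRHL2 drives epithelial genes and opposes ZEB1, and ESRP1 and ESRP2 direct the epithelial splice forms of genes such as FGFR2, CD44 and CTNND1.

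Library totals ran from 15494486 to 23069456 counts, and 14709 genes were tested with edgeR's quasi-likelihood test, adjusted over all of them by the Benjamini-Hochberg method and called at an adjusted p under 0.05. CPM is a gene's count relative to the TMM-scaled library total, on the usual scale. LMO2 itself was rare, at 1.01 ± 0.781 CPM in control, 0.189 ± 0.181 with shLMO2-1 and 0.121 ± 0.072 with shLMO2-2 (SD, n = 3 each). Control replicate 1 held 4 counts of it and lay inside the range of the shLMO2-1 libraries, so it did not show the higher LMO2 of its group. LMO2's log2 fold change was −2.44 for shLMO2-1 (adjusted p = 0.0907), −3.02 for shLMO2-2 (adjusted p = 0.0441) and −2.73 for the mean of both (adjusted p = 0.0216). The call for the mean was lost when 1 of 3 libraries was left out (control replicates 2 and 3, and shLMO2-1 replicate 2), with adjusted p between 0.052 and 0.113, and that for shLMO2-2 with 7 of the 9 (all but control replicate 1 and shLMO2-1 replicate 3; up to 0.138). With control replicate 1 left out, shLMO2-1 passed as well (−2.9, adjusted p = 0.0268). Of the markers of the line, EGFR (6321 CPM on average), KRT5, KRT8, KRT18 and EPCAM were abundant. ESR1 was at 3.89 CPM, and PGR was listed at 0 in every library.

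The cells expressed the epithelial arm of the switch together with vimentin, and most of the mesenchymal transcription factors were close to or at 0. Levels between genes were compared per kilobase of exons. In control cells VIM was highest, at 120 ± 6.79 CPM per kilobase (SD, n = 3), followed by ESRP1 at 38.7 ± 0.841, GRHL2 at 13.1 ± 0.914 and ESRP2 at 6.07 ± 0.267. TWIST2 followed at 4.98 ± 0.303 and SNAI1 at 1.20 ± 0.370. ZEB1 and ZEB2 stood at 0.00901 and 0.0064 CPM per kilobase, and SNAI2 and TWIST1 at 0.

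Each of the 6 expressed genes lay above the next in this order in every control library, so the order of those neighbours exceeded the spread between libraries. VIM was 3.11-fold above ESRP1, ESRP1 2.94-fold above GRHL2, GRHL2 2.16-fold above ESRP2 and TWIST2 4.16-fold above SNAI1. The step from ESRP2 to TWIST2 was 1.219-fold and rested on the length used. Per kilobase of the longest transcript, TWIST2 averaged 6.66 and ESRP2 6.14, and their control libraries overlapped. ZEB1, ZEB2, SNAI2 and TWIST1 did not separate from each other.

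**Figure D1:**
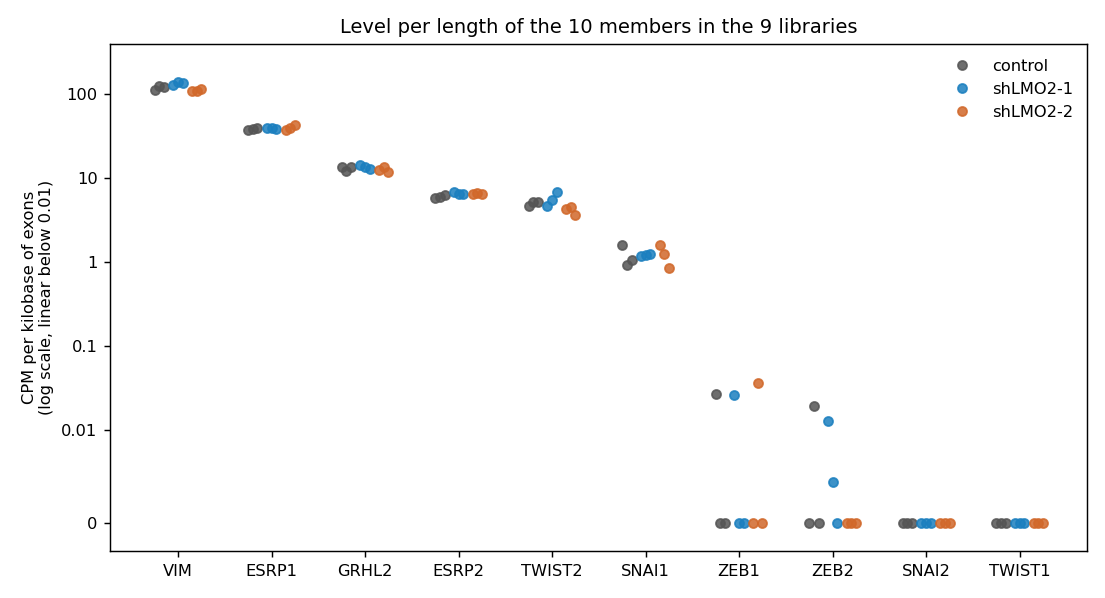
CPM per kilobase of exons for the 10 genes in each of the 9 libraries, on a log scale that turns linear below 0.01. Each point is a library, in the colour of its group. In control, VIM averages 120 and the epithelial genes lie between 5.89 and 39.5, and SNAI2 and TWIST1 are at 0 in all 9 libraries.

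SNAI1 is a zinc-finger repressor with a short-lived protein. It lies at chr20:49982999-49988886 (plus strand, GENCODE 29, GRCh38). SNAI1 gave 47, 30 and 34 counts in the control libraries, 35, 35 and 32 with shLMO2-1, and 62, 45 and 32 with shLMO2-2. That is 2.73, 1.54 and 1.80 CPM in control, 1.97, 2.05 and 2.11 with shLMO2-1, and 2.70, 2.09 and 1.44 with shLMO2-2. The 3 shLMO2-1 libraries were tight, while control and shLMO2-2 each spread over the whole range, and all groups overlapped. The 95% intervals on the fold were wide, from 0.638 to 1.61 for shLMO2-1 and from 0.655 to 1.62 for shLMO2-2 against control. Changes of SNAI1 within these limits remain possible, given the low counts and the spread between libraries.

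SNAI2 (Slug), the other family member tied to the basal mammary lineage, had 0 counts in all 9 libraries. With 172773288 counts in all, that allows up to 0.0174 CPM over the 9 libraries, taking 3 counts as the limit, and between 0.13 and 0.194 CPM in a single library. Against that floor, SNAI1 was at least 168-fold higher per kilobase than SNAI2. Limits of this kind hold for counting error alone, because the labels record no molecular identifiers and PCR copies are not independent. SNAI3, a further paralog from the list of other mesenchymal factors, averaged 1.76 CPM in control and 2.57 in the hairpin groups (log2 fold change 0.53, SE 0.313, edgeR adjusted p = 0.301).

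TWIST1 and TWIST2 split in the same way. TWIST1, a helix-loop-helix factor of the mesoderm, had 0 counts in all 9 libraries. TWIST2 gave 150, 189 and 183 counts in control, 155, 175 and 198 with shLMO2-1, and 185, 184 and 152 with shLMO2-2. Per kilobase, TWIST2 was at least 464-fold above the floor for TWIST1, taken as 3 counts over the 9 libraries. The 2 genes could be told apart by sequence: none of the 1848 stretches of 31 bases in TWIST2 transcripts occurs in a transcript of another gene. TWIST2 lies at chr2:238848032-238910543 (plus strand).

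TWIST2 abundance was 8.70, 9.69 and 9.67 CPM in control, 8.72, 10.3 and 13.1 with shLMO2-1, and 8.04, 8.54 and 6.83 with shLMO2-2. The shLMO2-2 libraries all lay below all 3 controls and all 3 shLMO2-1 libraries, and shLMO2-1 replicate 3 was the highest of the 9. TWIST2's log2 fold change was 0.19 for shLMO2-1 (95% interval −0.16 to 0.54) and −0.26 for shLMO2-2 (−0.61 to 0.09). Between the hairpins it was −0.45 (SE 0.160, 95% interval −0.80 to −0.10), with an adjusted p of 0.327 in edgeR's test, which did not pass. In that comparison 5.16% of all genes tested had a smaller p than TWIST2.

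ZEB1 and ZEB2, the large zinc-finger repressors of CDH1, were near the limit of counting. ZEB1 had 11 counts in all: 3 in control replicate 1, 3 in shLMO2-1 replicate 1 and 5 in shLMO2-2 replicate 2. ZEB2 had 9 counts, with 5 in control replicate 2, 3 in shLMO2-1 replicate 1 and 1 in shLMO2-1 replicate 2, and 0 in the shLMO2-2 group. Neither gene had a count in more than 3 of the 9 libraries, and no group had counts in all its libraries. Over the groups, ZEB1 stood at 0.0549, 0.0596 and 0.0738 CPM of the summed totals for control, shLMO2-1 and shLMO2-2.

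The 6 hairpin libraries were set against the 3 controls with an exact two-sided permutation test of log2(CPM + 0.1). This exact permutation test gave p = 1 for ZEB1 and p = 0.821 for ZEB2, and its 84 arrangements allow 0.0119 at the least. ZEB1 overlaps its antisense gene ZEB1-AS1, which averaged 0.345 CPM and so exceeded ZEB1 itself (0.0639 CPM). The use of strand in the counting is not given in the sources used here, so reads of overlapping genes cannot be assigned with certainty.

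Promoter windows, here the 250 bases before a transcription start, were found in the RefSeq tables (GRCh38.p14) for VIM, TWIST2, ZEB1 and ZEB2. They hold 10 windows, 7 of them for ZEB1. One stretch for each of 3 genes is printed, to set the promoter of the most abundant gene beside those of an expressed and a nearly silent mesenchymal factor. The TWIST2 stretch ends where the annotated gene begins. Capitals mark CAGGTG, an E-box hexamer that SNAI and ZEB proteins are known to bind, searched on both strands.
VIM chr10:17227991-17228240 (plus strand): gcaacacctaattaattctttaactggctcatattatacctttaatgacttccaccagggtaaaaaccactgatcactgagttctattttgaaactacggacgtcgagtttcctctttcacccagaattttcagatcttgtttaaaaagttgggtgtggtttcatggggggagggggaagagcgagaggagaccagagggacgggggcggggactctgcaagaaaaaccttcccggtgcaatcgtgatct
TWIST2 chr2:238847835-238848031 (plus strand): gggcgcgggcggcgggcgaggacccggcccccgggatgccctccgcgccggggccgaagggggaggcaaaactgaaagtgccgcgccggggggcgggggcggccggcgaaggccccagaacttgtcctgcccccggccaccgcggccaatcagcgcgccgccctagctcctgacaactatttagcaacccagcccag
ZEB1 chr10:31318167-31318416 (plus strand): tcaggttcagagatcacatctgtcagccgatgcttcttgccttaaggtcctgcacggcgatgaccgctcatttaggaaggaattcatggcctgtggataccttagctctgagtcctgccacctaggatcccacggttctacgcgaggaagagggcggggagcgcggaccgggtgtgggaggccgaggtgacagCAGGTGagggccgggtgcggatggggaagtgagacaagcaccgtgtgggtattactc

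CAGGTG occurred in 2 of the 10 windows, both of ZEB1, and in 17.5% of 35116 windows of the same length over all genes. Such a match is a description of the letters and not a binding site. The windows differed in base composition. VIM's window had 46% G and C and 8 CpG dinucleotides, TWIST2's whole window 68.4% and 26, and the printed ZEB1 window 59.2% and 15. The medians over all windows were 58% and 11. The printed TWIST2 stretch, 197 bases of its window, had 75.6% and 24.

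VIM (vimentin), the intermediate filament protein of mesenchymal cells, lies at chr10:17228259-17237593 (plus strand). VIM stood at 210.9, 236 and 226.5 CPM in the control libraries, at 239.1, 263.4 and 257 with shLMO2-1, and at 205, 203.8 and 218.8 with shLMO2-2. All 3 shLMO2-1 libraries lay above all 6 others, while shLMO2-2 and control overlapped. The group means of the hairpins, 253 and 209 CPM, lay on either side of the control mean of 224.5. VIM's log2 fold change was 0.17 for shLMO2-1 (SE 0.065, 95% interval 0.03 to 0.32, adjusted p = 0.130) and −0.10 for shLMO2-2 (−0.24 to 0.04, adjusted p = 0.366), from edgeR's quasi-likelihood test. For the mean of both it was 0.04 (−0.09 to 0.16), an average of values with opposite signs.

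Between the hairpins VIM was lower with shLMO2-2 in 3 of 3 libraries, by −0.27 on the log2 scale (SE 0.065, 95% interval −0.42 to −0.13), or 0.826-fold. Of the genes tested, 1.36% had a smaller p in that comparison. The adjusted p of 0.101 from edgeR did not pass. It did pass in 4 of the 18 alternatives, at a similar size: DESeq2 (−0.28, adjusted p = 0.00927), scaling to total counts (−0.29, 0.0438), the replicate number as a block (−0.27, 0.032) and leaving out control replicate 1 (−0.28, 0.0361). Over all 18 the log2 value ran from −0.31 to −0.25 and the adjusted p from 0.00927 to 0.38.

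VIM's transcripts share sequence with antisense genes that overlap it. Of its 5189 stretches of 31 bases, 23.2% occur in another gene, 611 of them in VIM-AS1 and 536 in AL133415.1. VIM-AS1 averaged 2.93 CPM and AL133415.1 0.00499 CPM over the 9 libraries, beside 229 CPM for VIM.

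The genes whose log2 CPM most resembled that of VIM over the 9 libraries, out of 11030 with a mean of at least 5 CPM, were RPS6KA1 (Pearson r = 0.955), ACTG1 (0.936) and RAB20 (0.934). RPS6KA1 encodes a kinase downstream of ERK, ACTG1 cytoplasmic gamma actin and RAB20 a small GTPase of vesicle traffic. RPS6KA1 stood at 109, 127 and 115 CPM in control, 123, 137 and 139 with shLMO2-1, and 112, 108 and 120 with shLMO2-2. These are descriptions of 9 libraries in 3 groups, chosen as the highest of many, and carry no test.

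ESRP1 and ESRP2, the epithelial splicing regulators, were expressed in every library. ESRP1 stood at 146.4, 149.7 and 152.9 CPM in control, 152.8, 153.2 and 148.4 with shLMO2-1, and 144.8, 153 and 167.4 with shLMO2-2. Its 9 values had a coefficient of variation of 4.32%, the smallest of the 6 genes, and all groups overlapped. The 95% interval on ESRP1's fold ran from 0.917 to 1.12 for shLMO2-1 and from 0.939 to 1.14 for shLMO2-2 against control. These were the narrowest intervals of the epithelial genes.

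ESRP2 stood at 22.6, 22.8 and 24.5 CPM in control, 26.4, 24.8 and 24.7 with shLMO2-1, and 24.8, 25.3 and 25.2 with shLMO2-2. All 6 hairpin libraries lay above all 3 controls, the only one of the 6 genes with that arrangement. The distance was small: the lowest hairpin library stood at 24.7 CPM and the highest control at 24.5. The log2 fold change for the mean of both hairpins was 0.11 (SE 0.068, 95% interval −0.04 to 0.26, edgeR adjusted p = 0.313). ESRP2 shares 119 stretches of 31 bases with NFATC3, which overlaps its end on the other strand and averaged 47.9 CPM, and reads from that overlap could fall to either gene.

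GRHL2, the grainyhead-like activator of epithelial genes, stood at 72.5, 64 and 72.3 CPM in control, 76.2, 71.4 and 68.4 with shLMO2-1, and 67.3, 71.7 and 63.4 with shLMO2-2. The 3 groups overlapped throughout. Its log2 fold change was 0.05 for shLMO2-1 (95% interval −0.12 to 0.22), −0.04 for shLMO2-2 (−0.21 to 0.12) and 0.00 for the mean (−0.14 to 0.15). By p, 98.1% of all genes tested ranked before GRHL2 in the mean comparison.

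**Figure D2:**
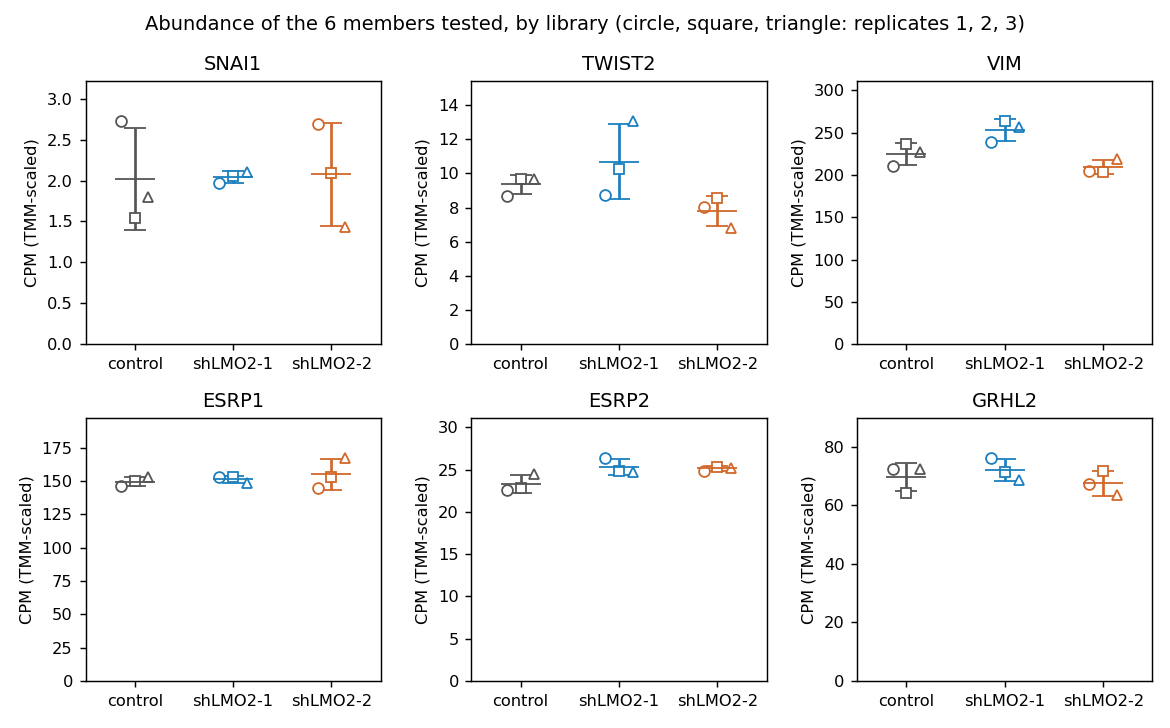
TMM-scaled CPM of the 6 genes that were tested, per library, with the mean (wide line) and SD (bar, n = 3) of each group. VIM is highest in the 3 shLMO2-1 libraries, TWIST2 lowest in the 3 shLMO2-2 libraries, and the ESRP2 hairpin libraries lie just above the controls.

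Of the 10 genes, 6 passed the filter on low counts, and 4 (SNAI2, TWIST1, ZEB1 and ZEB2) were too low in every group to be tested. Against control, edgeR called 0 of the 6 with shLMO2-1, where it called 8.42% of all genes tested, and 0 of the 6 with shLMO2-2, where it called 8.97%. For the mean of both hairpins it called 0 of the 6 (12.4% of all genes), and between the hairpins 0 of the 6 (0.768%). Split by direction, the genes called higher and lower were 4.54% and 3.88% of all genes with shLMO2-1, 4.94% and 4.04% with shLMO2-2, 6.47% and 5.93% for the mean, and 0.347% and 0.422% between the hairpins. At an unadjusted p under 0.05 the counts were 1 (VIM), 0, 0 and 2 (VIM and TWIST2) in the same order, beside 23.9%, 24.9%, 28% and 10.6% of all genes. limma-voom called 0 of them in each comparison, and DESeq2 0, 0, 0 and 1 (VIM). Against these background shares, 0 of 6 is no result particular to these genes. Without control replicate 1, whose LMO2 was low, edgeR called 0, 0, 0 and 1 (VIM), and VIM's log2 fold change was 0.12 with shLMO2-1 and −0.15 with shLMO2-2.

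Groups did not overlap in CPM for 2 of the 6 with shLMO2-1 against control (VIM and ESRP2, both higher), where 28.3% of all genes had no overlap. With shLMO2-2 it was also 2 (TWIST2 lower, ESRP2 higher), against 29.9%. For both hairpins together it was 1 (ESRP2), against 16.7%. Between the hairpins it was 2 (VIM and TWIST2, both lower with shLMO2-2), against 18.1%. The median log2 fold change of the 6 was 0.08, 0, 0.03 and −0.05 in the same order, while the median over all genes lay between −0.002 and 0.001. Largest in size were 0.19 for shLMO2-1 and −0.26 for shLMO2-2, both TWIST2.

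**Figure D3:**
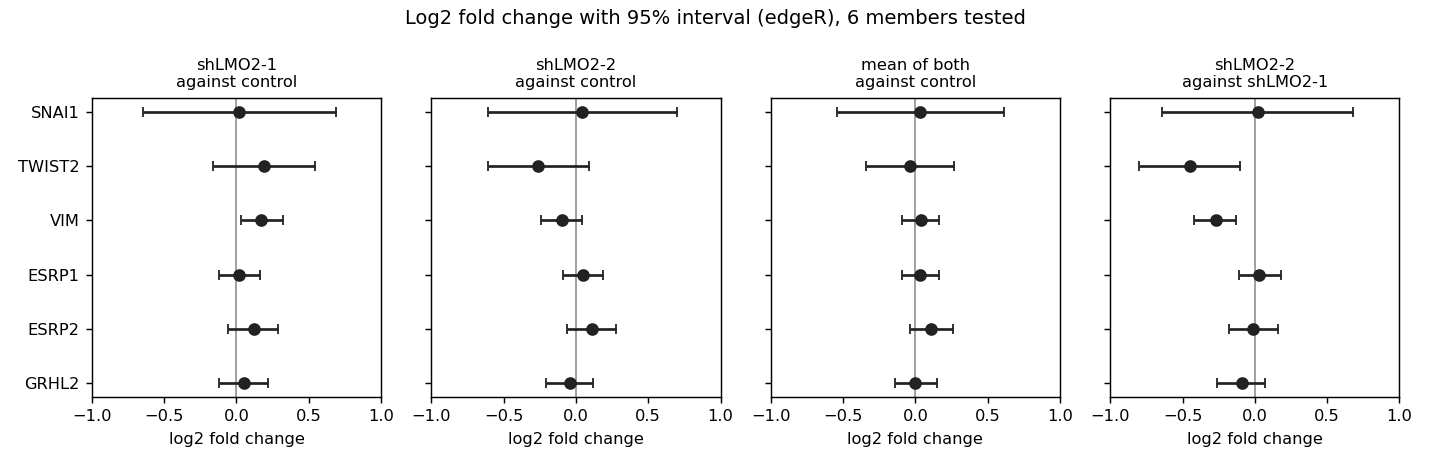
Log2 fold changes from edgeR with 95% intervals for the 6 genes tested, in 4 comparisons. Intervals of SNAI1 are the widest. Between the hairpins, the intervals of VIM (−0.42 to −0.13) and TWIST2 (−0.80 to −0.10) lie below 0, and neither gene passed after adjustment over all genes.

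The neighbouring genes of the switch were followed in lists written from general knowledge, and shares are of the genes tested in each list. The lists were chosen with earlier results of these data known, so their shares are descriptions and no independent support. Both hairpin comparisons use the same 3 control libraries, so their values are given side by side and not as independent evidence. In bulk RNA, fewer cells of a kind and less RNA per cell cannot be told apart.

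Of 22 other mesenchymal transcription factors, 14 were tested and 8 were below the filter, 3 of them (FOXC2, GSC and TBXT) at 0 in every library. In the mean of both hairpins 3 of the 14 rose and 0 fell (21.4%, beside 12.4% of all genes), with a median log2 fold change of 0.11. FOXC1, a forkhead factor of basal-like breast cancer, rose from 50.7 ± 5.77 CPM in control to 82.8 ± 0.539 with shLMO2-1 and 66.4 ± 4.09 with shLMO2-2 (SD, n = 3; mean log2 fold change 0.55, adjusted p = 0.0014). SOX9 and SOX11, both SOX-family factors, rose by 0.27 and 0.31 on the log2 scale. SOX9's call was lost without control replicate 2 (adjusted p = 0.0527), and SOX11's without any of 5 libraries (control replicates 1 and 2, shLMO2-1 replicates 2 and 3, and shLMO2-2 replicate 2; adjusted p up to 0.0664). With shLMO2-2 alone, SOX4 (−0.41) and ETS1 (−0.59) fell. Neither was named by rule but after its value was known, and neither passed when the hairpins were compared (adjusted p = 0.194 and 0.372).

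Of 17 other epithelial transcription factors, 16 were tested. SPDEF, an ETS factor of luminal cells, stood at 52 ± 3.599 CPM in control, 57 ± 2.96 with shLMO2-1 and 74 ± 5.12 with shLMO2-2. SPDEF rose with shLMO2-2 (log2 fold change 0.51, edgeR adjusted p = 0.00363) and in the mean comparison (0.32, adjusted p = 0.0144), and with shLMO2-1 its value of 0.13 did not pass (adjusted p = 0.356). FOXA1 rose by 0.29 in the mean comparison, a call that leaving out any library but control replicate 2 removed (adjusted p 0.0656 to 0.149). That makes 2 of 16 higher and 0 lower, at 12.5% close to the 12.4% over all genes. GRHL1 and GRHL3, paralogs of GRHL2, had log2 fold changes of −0.01 and 0.04. OVOL1 and OVOL2, which repress ZEB1 in epithelia, averaged 3.76 and 7.66 CPM in control and had log2 fold changes of 0.11 and 0.29 with intervals that included 0.

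Partners of the mesenchymal factors (corepressors, kinases, ubiquitin ligases and dimer partners) gave 1 higher and 2 lower of 25 tested, 12% beside 12.4%. Below the filter were PRKD1, at 0 in every library, and TCF12, with 2 counts in all. CSNK1E, a casein kinase, rose by 0.26 (adjusted p = 0.0112, lost without control replicate 3 at 0.0605). HDAC2, a histone deacetylase recruited by SNAI1, fell by 0.18 (adjusted p = 0.0203, lost without control replicate 2 at 0.0509), and EZH2 by 0.24 (adjusted p = 0.038, lost in 8 of 9 libraries left out, control replicate 1 being the exception). TCF3 encodes the E proteins E12 and E47, dimer partners of TWIST proteins. TCF3 stood at 201 ± 5.74 CPM in control, 231.5 ± 7.35 with shLMO2-1 and 163 ± 3.94 with shLMO2-2 (SD, n = 3), and no 2 groups overlapped.

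Between the hairpins TCF3 was lower with shLMO2-2 by −0.51 (SE 0.055, edgeR adjusted p = 0.00154), and it passed in all 18 alternatives. This was the only called gene of the 25 between the hairpins, a share of 4% beside 0.768% of all genes. The log2 change of TCF3 against control was 0.20 with shLMO2-1 (adjusted p = 0.0456, lost when any 1 of the 9 libraries was left out) and −0.30 with shLMO2-2 (adjusted p = 0.00821). FBXL5, a ubiquitin ligase subunit that targets SNAI1, fell with shLMO2-2 (−0.32, adjusted p = 0.0234, named after its value was seen).

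Splicing was followed at the level of whole genes, which does not show splice forms. Of 19 other splicing regulators tested, 0 rose and 1 fell (5.26% beside 12.4%): PTBP2, a neural paralog of PTBP1, by 0.33 (adjusted p = 0.0362, lost in 6 of 9 libraries left out, with adjusted p up to 0.0971; the 3 that kept it were control replicate 2, shLMO2-1 replicate 1 and shLMO2-2 replicate 1). RBM47 (0.14), RBFOX2 (0.03) and QKI (−0.02) did not pass, nor did their intervals exclude 0. Among 17 known ESRP target genes, all tested, SCRIB rose and MAP3K7, CD46 and CD44 fell in the mean comparison. That is 23.5% of the list, beside 12.4% of all genes.

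MAP3K7 (TAK1) fell by 0.31 (adjusted p = 0.00856) and CD46, a complement regulator, by 0.23 (adjusted p = 0.0119), and both were lower with each hairpin alone. With shLMO2-1 alone, MAP3K7's call was lost when any 1 of the 9 libraries was left out (edgeR adjusted p up to 0.142), and CD46's for 3 (up to 0.0835). With shLMO2-2 alone, MAP3K7's call was lost for 2 libraries (up to 0.065) and CD46's for 7 (up to 0.125). CD44, the hyaluronan receptor whose epithelial form is made by ESRP1, stood at 1689 ± 195.5 CPM in control, 1401 ± 55.1 with shLMO2-1 and 1455 ± 31.8 with shLMO2-2, where its value alone did not pass (−0.22, adjusted p = 0.0936). Its call for the mean (−0.24, adjusted p = 0.0294) was lost without shLMO2-1 replicate 1 or 3, or shLMO2-2 replicate 1 or 2 (up to 0.0601). SCRIB, a polarity protein, rose by 0.34 (adjusted p = 0.0275), and 6 of the 9 libraries removed that call when left out (all but control replicate 3 and shLMO2-2 replicates 1 and 3; up to 0.0884). FGFR2 and CTNND1 had log2 fold changes of 0.07 and 0.04, with intervals of −0.13 to 0.27 and −0.06 to 0.14. With shLMO2-1 alone NF2 rose as well (0.31, named after its value was seen).

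All 36 epithelial junction and surface genes were tested, and in the mean comparison 5 rose and 0 fell (13.9% beside 12.4%, median log2 fold change 0.06). CLDN8, a tight junction claudin, stood at 9.68, 9.02 and 9.15 CPM in control, 18.9, 17.5 and 22.4 with shLMO2-1, and 17.1, 18.2 and 21.3 with shLMO2-2. Every hairpin library lay above every control. CLDN8 rose by 1.05 (SE 0.113, adjusted p = 0.000349), and the call passed in all 17 alternatives. TJP3, a tight junction scaffold, rose by 0.22 and AP1M2, an epithelial sorting adaptor, by 0.34, with adjusted p of 0.0272 and 0.0315. Leaving out 8 of the 9 libraries one by one removed the call of TJP3 (shLMO2-1 replicate 1 did not; up to 0.077). For AP1M2 it was 5 (control replicates 1 and 3, shLMO2-1 replicate 3, and shLMO2-2 replicates 2 and 3; up to 0.0783). CLDN4 (0.19) and ST14 (0.16) also rose and were named after their values were seen, as was MUC1, which rose with shLMO2-2 alone (0.30).

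CDH1, the E-cadherin gene that SNAI and ZEB proteins repress, averaged 317 CPM in control, 295 with shLMO2-1 and 287 with shLMO2-2. All 6 hairpin libraries were below all 3 controls. The log2 difference was −0.12 (95% interval −0.23 to −0.02) and did not pass after adjustment (edgeR adjusted p = 0.106). EPCAM had the same value, −0.12 (adjusted p = 0.142).

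Of 37 mesenchymal effector genes, 35 were in the table and 20 were tested. The 15 below the filter included CDH2 (N-cadherin), with 2 counts in all 9 libraries, and 6 genes at 0, among them VCAN and POSTN. In the mean comparison 4 rose and 6 fell, 50% beside 12.4% of all genes, with a median of −0.09. With shLMO2-1 it was 3 up and 5 down (40% beside 8.42% of all genes). With shLMO2-2 it was 2 up and 8 down (50% beside 8.97%, median −0.23). Of the 8 genes that fell with shLMO2-2, the lowest were CTGF (−1.85), FBN1 (−1.47) and AXL (−1.19).

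CTGF, a matricellular protein and target of YAP, stood at 35, 28.3 and 27.2 CPM in control, 12.9, 14.2 and 13.5 with shLMO2-1, and 7.91, 8.49 and 8.58 with shLMO2-2. The 3 groups were fully separate. CTGF fell by 1.5 on the log2 scale in the mean comparison (SE 0.094, adjusted p = 1.04e-05) and passed in all 17 alternatives. S100A4, a calcium-binding protein of motile cells, fell by 0.71 (adjusted p = 0.000208) and TPM1, a tropomyosin, by 0.32 (adjusted p = 0.000985), likewise in all 17. TAGLN (−0.87), CALD1 (−0.60) and FBN1 (−1.25) fell as well, and with shLMO2-2 so did TGFBI (−0.41). These 4 and AXL were named after their values were seen.

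The 4 genes that rose were FN1, LOX, COL5A2 and TPM2. FN1 (fibronectin), a matrix glycoprotein, rose from 56.2 ± 8.38 CPM in control to 96.5 ± 4.95 with shLMO2-1, and was at 67.9 ± 5.94 with shLMO2-2, where its change did not pass (0.27, adjusted p = 0.131). Its mean log2 fold change was 0.53 (adjusted p = 0.00513). LOX, the collagen cross-linking oxidase, rose by 0.43 (adjusted p = 0.0157, lost without control replicate 3 at 0.075). COL5A2 and TPM2 rose by 0.40 each in the mean comparison. COL5A2, a fibrillar collagen chain, averaged 13.4 CPM in control, 21.9 with shLMO2-1, where it passed (log2 fold change 0.71, edgeR adjusted p = 0.00403), and 14.1 with shLMO2-2, where it did not (0.08, adjusted p = 0.716). TPM2 averaged 10.9 CPM in control, 12.6 with shLMO2-1, where it did not pass (0.20, adjusted p = 0.314), and 16.6 with shLMO2-2, where it did (0.60, adjusted p = 0.0092). COL5A2's call for the mean was lost when any of 6 libraries was left out (all but control replicate 1, shLMO2-1 replicate 3 and shLMO2-2 replicate 3; up to 0.116). TPM2's was lost for 5 (all but control replicate 1, shLMO2-1 replicates 1 and 2 and shLMO2-2 replicate 3; up to 0.0927). TPM2 is a tropomyosin like TPM1, which fell.

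Vimentin's relatives among intermediate filaments gave 1 higher and 1 lower of 8 tested in the mean comparison (25% beside 12.4% of all genes). Below the filter were 5 of 13, with NEFL at 0. NES (nestin), a filament protein that assembles with vimentin, stood at 8.41, 7.38 and 9.62 CPM in control, 4.84, 4.51 and 4.22 with shLMO2-1, and 1.87, 3.02 and 2.43 with shLMO2-2. No 2 groups overlapped, and NES fell by 1.35 (SE 0.158, adjusted p = 0.000554). NEFH, a neurofilament subunit, rose by 0.59 (adjusted p = 0.0216, lost without control replicate 2 or 3, up to 0.0929). INA, alpha-internexin, rose with shLMO2-1 (0.42, adjusted p = 0.0136). Between the hairpins INA was lower with shLMO2-2 by −0.60 (adjusted p = 0.00775, lost without shLMO2-2 replicate 2 at 0.06).

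**Figure D4:**
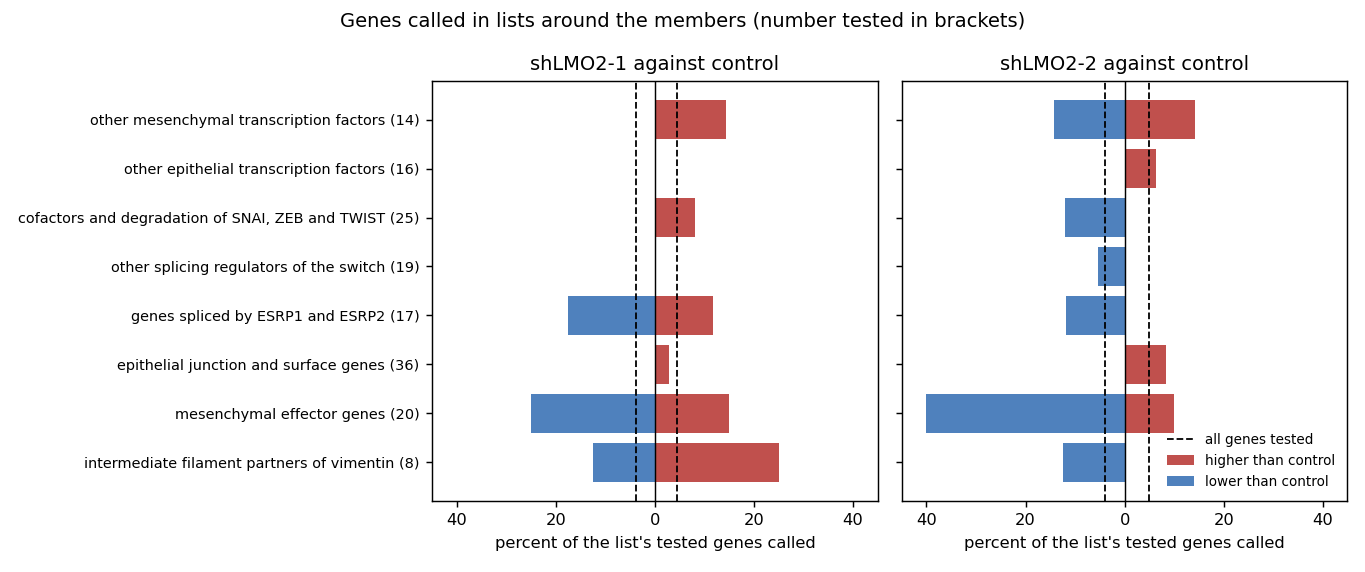
Percent of the tested genes of 8 lists that were called higher (right, red) or lower (left, blue) than control, for each hairpin, with the number tested in brackets. Dashed lines give the same share over all genes tested. The mesenchymal effector genes have the longest bars on the lower side, 40% with shLMO2-2.

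**Figure D5:**
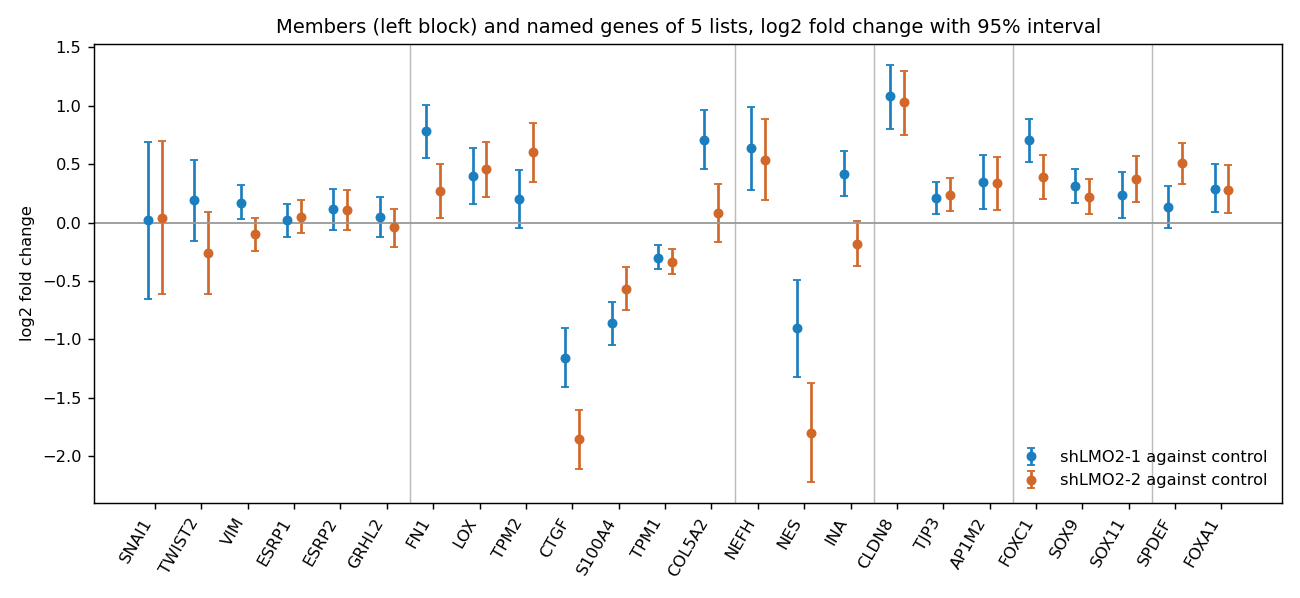
Log2 fold changes with 95% intervals against control for both hairpins, for the 6 tested switch genes (first block) and the named genes of 5 lists. The switch genes lie within 0.26 of 0 in size, while CTGF and NES lie between −0.90 and −1.85 and CLDN8 at 1.08 and 1.03.

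Markers of other cells were set beside these values. Fibroblast and endothelial markers had 0 of 6 tested genes called by edgeR in the mean comparison (3 at an unadjusted p under 0.05), and their summed level ran from 18.4 to 29.3 CPM in control, 28.1 to 33.6 with shLMO2-1 and 23.7 to 28.1 with shLMO2-2. COL3A1 and LUM were at 0 and COL1A2 had 1 count in all. Leukocyte markers had 2 higher (CD14 and CD68) and 1 lower (ITGAM) of 4 tested, 75% beside 12.4% of all genes. Their sums were 9.99 to 12.7, 12 to 16.7 and 9.93 to 11.8 CPM in the same order, with CD3E and LYZ at 0. Of 10 markers of the line, 5 rose (KRT8, KRT18, KRT19, EGFR and ITGB4) and 0 fell in the mean comparison, 50% beside the same 12.4%. With shLMO2-1 alone 3 rose and 1 fell (40% beside 8.42%), and with shLMO2-2 4 rose and 0 fell (40% beside 8.97%). KRT5 averaged 3203 ± 44.7 CPM in control, 2648 ± 198 with shLMO2-1 and 3380 ± 254 with shLMO2-2 (SD, n = 3). The part of all these markers in the differences of the lists above was not tested.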

How the data were processed

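Estimated counts per gene had been deposited by the authors as a table of 56809 gene symbols for 9 libraries. Per the submitters' processing notes, Salmon 0.12, DESeq2 1.22.2 and GRCh38.p12 were used, with no role or order given; the annotation and the use of strand are not given in the sources used here. A program that divides reads among matching transcripts can move them between genes that share sequence. The values were rounded and tested with edgeR 4.0.16 in R 4.3.3 (TMM scaling, filterByExpr with a minimum count of 10 and total of 15, LMO2 kept, all 9 libraries in a fit with 3 groups, no covariate). Of the table, 14709 genes holding 99.91% of counts were tested, and no adjusted p was taken over a list alone. Standard errors came from the log2 fold change and its F statistic.

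Groups were taken from the plasmid named in the labels. No 2 libraries of a group were alike within counting noise (chi-square per gene 4.79 to 25.2). The largest values were those of control replicate 1, at 25.2 against control replicate 2 and 17.2 against control replicate 3. Between control replicates 2 and 3 the value was 6.0. Lengths, positions and overlaps were matched by symbol to GENCODE 29 (GRCh38), and promoters came from RefSeq tables (GRCh38.p14). The genes, lists and tests were chosen with earlier results of these data known. Named from each list were up to 3 genes higher and 3 lower ranked by p for the mean of both hairpins, and up to 2 each way between the hairpins, among called genes; others are said to have been named after their values were seen. Other settings tried were 3 scalings (total counts, upper quartile, median of ratios), 2 filters, limma-voom (limma 3.58.1), DESeq2 1.42.0, a threshold of 0.01, the replicate number as a block, fits on the compared groups alone, and fits without each library in turn. Some genes of the fixed lists are not reported here.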

Additional observations from a re-analysis of the deposited data

Results flagged for a closer look

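None of the 6 switch genes tested was among the results below. Of the list genes named, 4 differed between the hairpins, that is, the change against control with shLMO2-2 differed from that with shLMO2-1 in edgeR's test of the difference. The naming rule itself uses calls in this comparison, so the number of such genes is no separate result. Over all genes tested, 0.768% were called there. The value is the log2 difference, shLMO2-2 less shLMO2-1. TCF3, a dimer partner of TWIST proteins, differed by −0.51 (adjusted p = 0.00154), and its 2 changes against control had opposite signs, 0.20 and −0.30. INA, a neuronal intermediate filament gene, differed by −0.60 (adjusted p = 0.00775). CTGF differed by −0.70 (adjusted p = 0.0247) and was lower than control with both hairpins. COL5A2, a fibrillar collagen chain, differed by −0.63 (adjusted p = 0.0298), being higher than control with shLMO2-1 (0.71) and near it with shLMO2-2 (0.08). The calls of CTGF and COL5A2 were each lost when any of the 6 hairpin libraries was left out (adjusted p up to 0.142 and 0.145). Both comparisons against control use the same 3 control libraries.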

How the results depend on the processing

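The switch genes kept 0 calls against control under every alternative run. Between the hairpins 1 (VIM) was called with total counts, with DESeq2, with the replicate block and without control replicate 1, so the range over left-out libraries was 0 to 1. Of the values of the 6 genes under alternatives, 424 kept direction and side of the threshold, 4 passed newly and 22 changed sign; the cause was not tested. With total counts, SNAI1 and ESRP1 were −0.02 each with shLMO2-1, and SNAI1, VIM and ESRP1 were −0.01 each for the mean of both hairpins. Between the hairpins SNAI1 was −0.02 with limma-voom and −0.01 with the replicate block. Leaving out libraries, SNAI1 ranged from −0.14 to 0.29 with shLMO2-1, from −0.20 to 0.31 with shLMO2-2, from −0.13 to 0.30 for the mean and from −0.22 to 0.23 between the hairpins. GRHL2 with shLMO2-1 ranged from −0.01 to 0.08, ESRP1 from −0.01 to 0.09 with shLMO2-2 and from −0.03 to 0.08 between the hairpins, and ESRP2 from −0.03 to 0.02 between the hairpins. For the mean, TWIST2 ranged from −0.12 to 0.03 and VIM from −0.01 to 0.07, and LMO2 from −1 to 0.45 between the hairpins.

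Over all genes, 1239, 1320, 1823 and 113 were called with shLMO2-1, with shLMO2-2, for the mean and between the hairpins, and 21, 25, 30 and 4 of the 8 lists. An adjusted p under 0.01 left 353, 390, 623 and 46, and 8, 9, 11 and 2 list genes. With the groups compared alone (not possible for the mean, which holds all groups) the counts were 695, 776 and 189, and 13, 14 and 7 list genes. The replicate block gave 2214, 2377, 3024 and 257, and 33 and 7 list genes for the first and the last. Between the hairpins, no filter gave 378 and DESeq2 310 genes, and 10 and 8 list genes. Leaving out libraries gave 546 to 1397, 494 to 1243, 947 to 1592 and 38 to 239 genes, and 10 to 21, 10 to 24, 18 to 26 and 1 to 8 list genes.

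The main fit did not pair libraries by replicate number. Same-numbered libraries correlated, in deviations from their group means, at 0.331 to 0.389 for number 1 and 0.214 to 0.299 for number 3. For number 2 it was −0.097 to 0.05, and 6 of 9 libraries correlated best with their own number. Some structure shared by number was thus present for numbers 1 and 3, and its source was not tested. Scaling moved the median of all genes by 0.048 at most in size (total counts, −0.048). With no filter, 8 of the 10 genes entered among 26128; ZEB1 and ZEB2 had adjusted p of 0.325 or more. Depth limits SNAI1, ZEB1 and ZEB2, for SNAI1 together with the spread between libraries. For SNAI2 and TWIST1 depth allows only an upper limit.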
